A study of Mus musculus with 24 samples.

Results

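The 9 genes described here encode S100 proteins, a family of small calcium-binding proteins. They are S100a1, S100a4, S100a6, S100a8, S100a9, S100a10, S100a11, S100a13 and S100a16, chosen by gene name, and each was present in all 3 deposited tables of 35687 or 35688 genes. Poly(A)-selected RNA was sequenced from mouse mOSE cultures, that is, cells grown from the epithelial layer that covers the ovary. There were 24 libraries in 8 groups of 3. In the culture experiment, cells of the m1102 line were TGFB1 spheroids, untreated spheroids, TGFB1 monolayers or untreated monolayers. TGFB1 is the cytokine transforming growth factor beta 1, given at 10 ng/mL, for the spheroids during the 4 days that preceded low-attachment culture. The duration for monolayers is not given in the sources used here. In the Snail experiment, m1102 monolayers carried a lentiviral Snail construct or the WPI lentiviral vector alone. In the BRCA1 experiment, cells of the mOSE_BRCA1_fl line, taken from mice with floxed BRCA1 alleles, received adenoviral Cre recombinase (BRCA1 ko) or adenoviral GFP (BRCA1 wt). Both arms of the BRCA1 experiment therefore carried floxed alleles and an adenovirus, and all groups grew in the same medium with serum, ITSS and EGF. Each experiment used 1 cell line, and separate cultures are not named for the 3 libraries of any group, so each p-value measures only the spread between these libraries.

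S100 proteins work mostly as dimers whose EF-hand loops bind calcium and then open a surface for partner proteins such as annexins, cytoskeletal motors and p53. Several members also leave the cell and act on receptors such as RAGE (Ager) and TLR4. S100A8 and S100A9 pair as calprotectin, an alarmin abundant in neutrophils that stressed epithelia can also make. S100A4 is widely used as a marker of fibroblasts and of epithelial cells that take on mesenchymal features.

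Values are the authors' TPM (a transcript level corrected for length and library size) after a further scaling of each library, called scaled TPM here. Column sums ran from 796668 to 1810667, so the columns do not share 1 total. The tables hold no counts, and sequencing depth is therefore unknown. Fold changes are differences of log2(scaled TPM + 1) and understate the change of low genes. The test was limma, run over every gene that reached a scaled TPM of 1 in 3 or more libraries, and a gene is called where its p after Benjamini-Hochberg adjustment was under 0.05. The 3 tables were scaled separately, so levels are compared only within a table. All 6 monolayer libraries of the culture experiment, and no spheroid library, are titled as re-analysed, so the culture effect and that of re-analysis cannot be told apart. The labels of untreated monolayers 1 and 2 point to 1 and the same earlier sample. The values of these libraries were not identical, with a correlation of 0.9915 in log2(scaled TPM + 1). The other pairs of that group had 0.9924 and 0.993. Such values do not show whether they came from separate cultures. Ovarian surface and mesothelial markers were high in untreated monolayers, and of 13 tested 2 were higher and 11 lower in untreated spheroids, with 0 higher and 10 lower in TGFB1 spheroids than in untreated ones. Keratin 7 (Krt7), for example, averaged 2.69 scaled TPM in untreated spheroids and 329 in untreated monolayers. In TGFB1 spheroids against untreated ones, 3 of 7 tested fibroblast markers were higher (Pdgfrb, Col1a1 and Dcn) and 2 lower (Dpt and Col3a1), 1 of 2 tested endothelial markers was higher, namely Cdh5, and 1 of 4 tested squamous genes was lower, namely Sprr1a. Pdgfrb reached 1 in enough libraries to be tested only through the TGFB1 spheroids, and Dpt only through the untreated spheroids. Neither call is therefore separate from that filter. Summed over 24 squamous genes, scaled TPM was 1516, 1732 and 513 in untreated spheroids and 47.8, 47.7 and 58.0 in untreated monolayers. Only 3 or 4 of these genes reached 1 in each of those libraries. The part of all these marker changes in the members' results was not tested. In these bulk libraries, fewer cells of a type and less RNA per cell cannot be told apart.

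All 9 genes lie on chromosome 3 of the mouse build GRCm38. From S100a1 to S100a9, 7 of them fall within 184.7 kb, while S100a11 and S100a10 sit together in 44.2 kb after a gap of 2824.8 kb. S100a1 (chr3:90511034-90514392, minus strand) and S100a13 (chr3:90514435-90524581, plus strand) run in opposite directions from starts 0.04 kb apart. S100a16 (chr3:90537254-90543151), S100a4 (chr3:90603771-90606045) and S100a6 (chr3:90612882-90624181) follow on the plus strand. S100a8 (chr3:90668978-90670035, plus strand) and S100a9 (chr3:90692632-90695721, minus strand) have starts 26.7 kb apart and face each other. S100a11 is at chr3:93520488-93526287 and S100a10 at chr3:93555080-93564643, both on the plus strand.

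The bases before the RefSeq starts (GRCm38.p6) of the genes on which the results turn were searched on both strands for 4 short motifs. These were TGANTCA (AP-1), TTGCNNA (part of the C/EBP site), CAGGTG (an E-box bound by Snail) and CAGACA (the SMAD element). Promoters of 8 of the 9 genes were matched in the RefSeq table, with 9 starts in all because S100a16 has 2. Capitals mark the matches, S100a16 is shown for both starts, and bases that an annotated exon covers are left off. S100a8 is shown because it was highest in TGFB1 spheroids. S100a9, which was not tested, is shown because in the culture experiment only TGFB1 spheroids 2 and 3 listed it above 0. S100a16 is shown because it separated spheroids from monolayers, and S100a11 because it was higher with TGFB1 in both cultures.
S100a8, plus strand, chr3:90668821-90668977: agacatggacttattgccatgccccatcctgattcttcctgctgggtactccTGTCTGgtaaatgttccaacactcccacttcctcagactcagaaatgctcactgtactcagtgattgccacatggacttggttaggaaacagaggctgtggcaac
S100a9, minus strand, chr3:90695722-90695971: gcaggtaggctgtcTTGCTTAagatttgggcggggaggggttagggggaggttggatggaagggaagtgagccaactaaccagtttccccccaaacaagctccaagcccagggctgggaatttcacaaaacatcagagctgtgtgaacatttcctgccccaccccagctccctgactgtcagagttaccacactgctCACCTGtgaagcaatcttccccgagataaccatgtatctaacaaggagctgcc
S100a16, the upstream start, plus strand, chr3:90537004-90537253: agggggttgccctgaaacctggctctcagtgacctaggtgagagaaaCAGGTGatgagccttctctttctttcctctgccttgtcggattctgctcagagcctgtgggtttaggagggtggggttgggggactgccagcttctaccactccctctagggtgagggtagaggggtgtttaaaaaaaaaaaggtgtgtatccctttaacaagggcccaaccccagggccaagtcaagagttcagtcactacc
S100a16, the downstream start, plus strand, chr3:90540896-90541145: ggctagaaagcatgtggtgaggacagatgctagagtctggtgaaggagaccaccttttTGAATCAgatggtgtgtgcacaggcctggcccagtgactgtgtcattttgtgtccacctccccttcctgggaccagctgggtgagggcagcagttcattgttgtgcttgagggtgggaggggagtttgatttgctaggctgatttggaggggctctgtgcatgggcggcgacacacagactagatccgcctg
S100a11, plus strand, chr3:93520246-93520487: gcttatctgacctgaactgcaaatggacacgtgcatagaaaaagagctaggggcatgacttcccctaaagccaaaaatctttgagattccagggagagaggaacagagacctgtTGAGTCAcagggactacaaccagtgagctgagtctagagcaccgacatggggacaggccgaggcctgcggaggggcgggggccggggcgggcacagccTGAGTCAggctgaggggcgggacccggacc
Distances are counted in bases from the first base of the match, as printed, to the RefSeq start, which lies 93 bases past the last printed base for S100a8 and 8 bases past it for S100a11. S100a8 held CAGACA at 198 bases, read on the other strand. S100a9 held TTGCNNA at 236 bases and CAGGTG at 53 bases, the latter also read on the other strand. S100a16 held CAGGTG at 203 bases before its upstream start and TGANTCA at 192 bases before its downstream start. S100a11 held TGANTCA at 136 and at 38 bases. None of these matches overlapped another. Of all 32851 stretches of 250 bases in the RefSeq table, 6.7% held TGANTCA, 32.8% TTGCNNA, 17.2% CAGGTG and 17.1% CAGACA. S100a1, S100a4, S100a6 and S100a13 held none of these letters in the 250 bases searched. A match is a description of letters and shows no binding.

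In the culture experiment, S100a6 and S100a11 were the most abundant members, and together the 9 genes made up 0.400% to 0.601% of each library's scaled TPM. S100a6, calcyclin, averaged 1594 ± 412 scaled TPM in TGFB1 spheroids, 1531 ± 505 in untreated spheroids, 1819 ± 69.7 in TGFB1 monolayers and 3311 ± 502 in untreated monolayers (SD, n = 3 each). S100a11, a partner of annexin A1, averaged 2657 ± 712, 1624 ± 103, 2138 ± 383 and 1404 ± 116 scaled TPM in the same groups (SD, n = 3 each). S100a6 was therefore above S100a11 in 3 of 3 untreated monolayers and 1 of 3 untreated spheroids, but in 0 of 3 TGFB1 spheroids and 0 of 3 TGFB1 monolayers. S100a8 and S100a9 were the lowest members outside the TGFB1 spheroids.

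**Figure D1:**
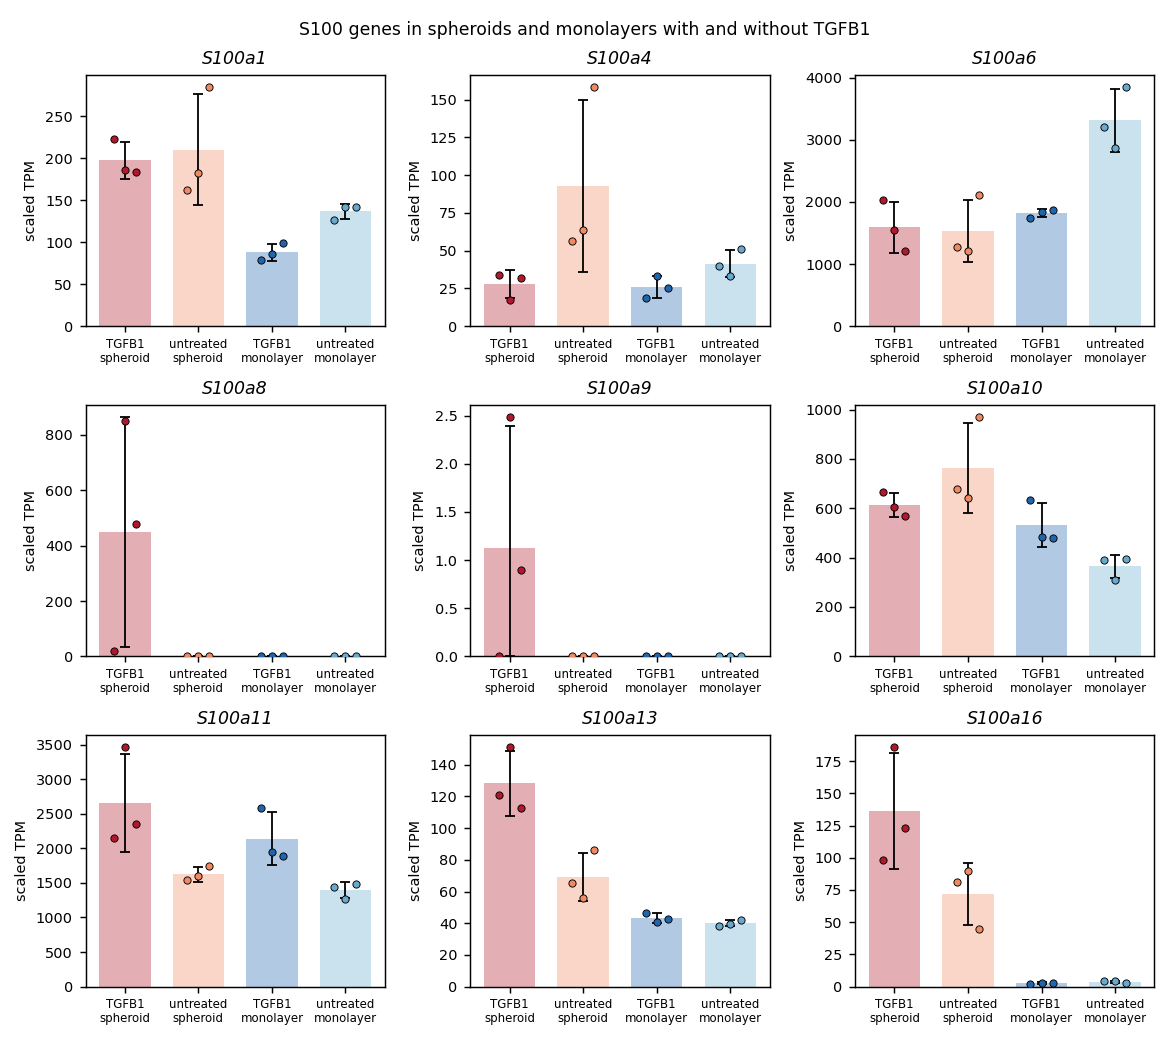
Scaled TPM of each gene (linear axis from 0, its own scale per panel) in the 4 groups of the culture experiment; points are libraries 1 to 3 from left to right, bars are means and whiskers are SD, drawn no lower than 0. S100a8 reached 850.3 in TGFB1 spheroid 2 and stayed at or below 2.73 in the other 3 groups, and S100a16 separated spheroids from monolayers.

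TGFB1 spheroids had more S100a8, S100a11, S100a13 and S100a16 than untreated spheroids and less S100a4. Of 8 members tested, 4 were called higher and 1 lower, while 35.6% of all tested genes were called in this comparison, 18.8% higher and 16.8% lower. The members' median log2 fold change was 0.38, beside 0.0026 over all tested genes. Libraries of the 2 groups did not overlap for 4 members that were higher and 1 that was lower, as was so for 23.4% (higher) and 20.5% (lower) of all tested genes.

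S100a8 was at 19.6, 850.3 and 479.8 scaled TPM in TGFB1 spheroids 1 to 3, against 2.73, 0.940 and 0.668 in untreated spheroids 1 to 3. The groups did not overlap, but TGFB1 spheroid 1 was far below the other two of its group. The log2 fold change was 6.47 ± 1.05 (SE), or 88.7-fold, with a limma adjusted p of 0.00101. Outside the TGFB1 spheroids, S100a8 reached the filter's scaled TPM of 1 only in untreated spheroid 1. It was therefore tested only because of the group in which it was called higher, so its call is not separate from the filter. The same holds for its calls in the interaction and in TGFB1 spheroids against TGFB1 monolayers. Leaving out any 1 of the 12 libraries gave log2 fold changes between 5.44 and 8.12, and all 12 fits kept the call. S100a9 was listed at 0, 2.49 and 0.899 scaled TPM in TGFB1 spheroids 1 to 3 and at 0 in the 9 other libraries of the experiment. It missed the filter on low values, and its only values above 0 were in the 2 libraries with the most S100a8. Per length, S100a9 stayed far below S100a8 in those libraries. The authors' deposited comparison tables, with coefficients and q-values, list neither S100a8 nor S100a9. TGFB1 spheroid 1 also had the lowest share of mitochondrial transcripts of its group, 7.24% against 13.9% and 12.1% in TGFB1 spheroids 2 and 3, and the part of that difference in the result was not tested.

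Because S100a8 and S100a9 are classical products of neutrophils and monocytes, markers of myeloid cells were read in the same libraries. Only 4 of the 20 myeloid and neutrophil markers passed the filter on low values. The defining markers were at or near 0 in TGFB1 spheroids: the highest values were 0.142 for Itgam, 0.123 for Ptprc (CD45), 0.0963 for Csf3r and 0.0267 for Spi1, and Tyrobp was at 0 in all 3 libraries. Summed over the 20 markers, scaled TPM was 20.6, 100.9 and 88.0 in TGFB1 spheroids 1 to 3 and 69.8, 66.2 and 16.9 in untreated spheroids 1 to 3. The sum was lowest in TGFB1 spheroid 1 and untreated spheroid 3 and overlapped between the groups. The part of myeloid cells in the S100a8 values was not tested. Cd68, a lysosomal protein used as a macrophage marker, carried most of the sum, at 11.6, 62.5 and 51.9 scaled TPM in TGFB1 spheroids and 65.8, 62.2 and 14.2 in untreated spheroids. Of the 4 tested markers, 2 were called higher in TGFB1 spheroids, namely Camp, which encodes the antimicrobial peptide cathelicidin (log2 fold change 2.88 ± 0.56, SE, limma adjusted p = 0.00286), and Cxcr2, a chemokine receptor, whose mean was 2.04 against 0.572 scaled TPM. Camp was at 2.24, 18.7 and 16.8 scaled TPM in TGFB1 spheroids 1 to 3, so its lowest library was again TGFB1 spheroid 1, whereas Cxcr2 was highest there, at 3.32 scaled TPM.

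Genes linked with calprotectin in inflamed epithelium were read in the same way. Of 13 tested genes in a list of 18 inflammatory regulators and linked genes, 6 were higher in TGFB1 spheroids than in untreated spheroids and 1 was lower. Lcn2, lipocalin 2, which withholds iron from bacteria, was at 66.1, 355 and 488 scaled TPM in TGFB1 spheroids, against 9.16, 8.97 and 5.87 in untreated spheroids (log2 fold change 4.68 ± 0.56, SE, limma adjusted p = 0.000168). TGFB1 spheroid 1 was the lowest of its group here too. The cytokine Il6 changed by 3.46 ± 0.62 (SE, adjusted p = 0.00175) and the protease inhibitor Slpi by 2.96 ± 0.43 (SE, adjusted p = 0.000583), both in log2 fold change by limma. Of transcription factors that act on C/EBP sites, Cebpb rose by 1.22 ± 0.27 (SE, limma adjusted p = 0.00551), with 655 ± 143 scaled TPM in TGFB1 spheroids and 283 ± 74.2 in untreated spheroids (SD, n = 3 each). Cebpa, named after its values were seen, averaged 32.3 ± 8.41 and 13.7 ± 1.11 scaled TPM in the same groups (SD, n = 3 each). Tgfb1 itself was at 776, 991 and 624 scaled TPM in TGFB1 spheroids and at 107, 98.1 and 93.8 in untreated spheroids.

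**Figure D2:**
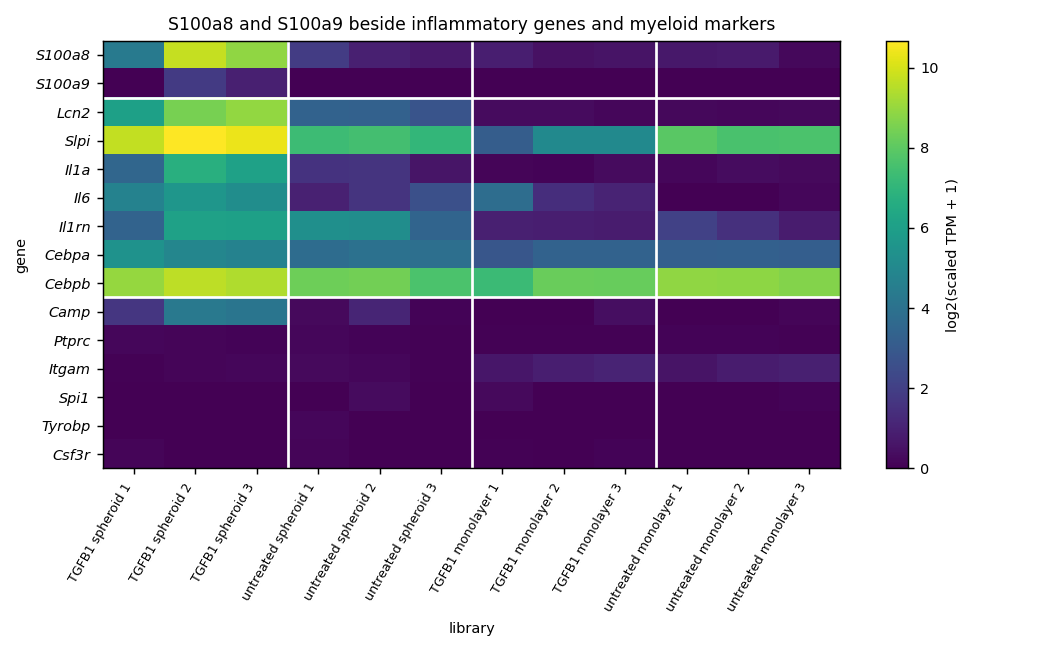
Colour gives log2(scaled TPM + 1) of S100a8 and S100a9 (top), inflammatory genes (middle) and Camp with the 5 defining myeloid markers (bottom) in the 12 libraries of the culture experiment. S100a8, Lcn2 and Il1a are brightest in TGFB1 spheroids 2 and 3, while Ptprc, Spi1, Tyrobp and Csf3r stay dark in every library.

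S100a4, which binds nonmuscle myosin IIA, was lower with TGFB1 in spheroids. It was at 34.1, 17.0 and 31.7 scaled TPM in TGFB1 spheroids 1 to 3 and at 56.6, 63.7 and 158.6 in untreated spheroids 1 to 3. The groups did not overlap, and untreated spheroid 3 was well above the other two of its group. The log2 fold change was -1.62 ± 0.38 (SE, limma adjusted p = 0.00791), and it stayed called in all 12 fits without 1 library (adjusted p up to 0.0379). Of 14 tested binding partners of S100 proteins, 4 were higher and 3 lower in TGFB1 spheroids. Among them Myh9, the heavy chain of that myosin, was higher, with 417 scaled TPM on average in TGFB1 spheroids and 147 in untreated spheroids (log2 fold change 1.47 ± 0.18, SE, limma adjusted p = 0.000175). Anxa11, an annexin, was lower, at 48.8 and 123 scaled TPM on average in the same groups (-1.35 ± 0.16, SE, limma adjusted p = 0.000157). Snai1, which encodes Snail, was also higher, at 52.3, 42.0 and 33.5 scaled TPM in TGFB1 spheroids, against 3.23, 2.94 and 6.62 in untreated spheroids.

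S100a13, needed for the nonclassical release of FGF1 and interleukin 1 alpha, was at 121, 151 and 112.5 scaled TPM in TGFB1 spheroids 1 to 3, against 65.6, 56.1 and 86.0 in untreated spheroids. Every TGFB1 spheroid library was above every untreated one, with a log2 fold change of 0.89 ± 0.15 (SE, limma adjusted p = 0.00117). Of its cargo, Il1a rose to 10.4, 105 and 67.1 scaled TPM in TGFB1 spheroids, against 2.00, 2.04 and 0.503 in untreated spheroids (log2 fold change 4.18 ± 0.64, SE, limma adjusted p = 0.000731). Il1a averaged 0.14 scaled TPM in TGFB1 monolayers and 0.21 in untreated ones. It therefore passed the filter on low values only through the TGFB1 spheroids, so its call is not separate from the filter. Fgf1 was at 22.7, 2.44 and 7.37 scaled TPM in TGFB1 spheroids and 17.5, 17.3 and 114 in untreated spheroids, and it did not pass (limma adjusted p = 0.0612).

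S100a11 was at 2144, 3469 and 2357 scaled TPM in TGFB1 spheroids and 1538, 1595 and 1738 in untreated spheroids, a log2 fold change of 0.68 ± 0.18 (SE, limma adjusted p = 0.0128). Its partner Anxa1 had a log2 fold change of 0.74 ± 0.17 here (SE, limma adjusted p = 0.00675). In the other group comparisons of the culture experiment Anxa1 lay on the other side of 0 from S100a11, by limma. Anxa1 was at -1.52 (adjusted p = 3.04e-05) in untreated spheroids against untreated monolayers, with S100a11 at 0.21 (0.336). In TGFB1 monolayers against untreated ones Anxa1 was at -0.26 (0.338) and S100a11 at 0.60 (0.0424). In TGFB1 spheroids against TGFB1 monolayers Anxa1 was at -0.51 (0.0267) and S100a11 at 0.30 (0.186). In the BRCA1 experiment both lay below 0. The S100a11 call between spheroids was lost when only the 6 spheroid libraries were fitted (limma adjusted p = 0.0601). S100a16 was at 98.6, 186 and 123.5 scaled TPM in TGFB1 spheroids and 81.4, 89.8 and 44.9 in untreated spheroids (log2 fold change 0.92 ± 0.30, SE, limma adjusted p = 0.0331). It lost the call in 3 of 12 fits without 1 library, namely TGFB1 spheroid 2 (adjusted p = 0.136), TGFB1 spheroid 3 (0.0541) or untreated spheroid 3 (0.103). It also lost it in 3 of 8 other settings, with no filter (0.0682), equal sums (0.0592) or the 6 spheroid libraries alone (0.0888). A copy of S100a11, the pseudogene S100a11-ps, was listed at no more than 0.464 scaled TPM in any library.

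S100a1, S100a6 and S100a10 did not pass in this comparison. S100a1, known for its role in muscle calcium handling, was at 223, 186 and 183 scaled TPM in TGFB1 spheroids and at 162, 182.5 and 285 in untreated spheroids, with overlapping groups (limma adjusted p = 0.852). S100a6 overlapped too, at 2029, 1542 and 1210 scaled TPM in TGFB1 spheroids and 1271, 1209 and 2113 in untreated spheroids (limma adjusted p = 0.827). S100a10, which has lost calcium binding and forms a tetramer with annexin A2, was at 665, 607 and 569 scaled TPM in TGFB1 spheroids and 679, 640 and 971 in untreated spheroids (log2 fold change -0.29 ± 0.17, SE, limma adjusted p = 0.201). Its groups overlapped as well. With every library scaled to an equal sum, S100a10 was called lower (-0.48, adjusted p = 0.0476), but that scaling also moved the median of all genes to -0.16.

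**Figure D3:**
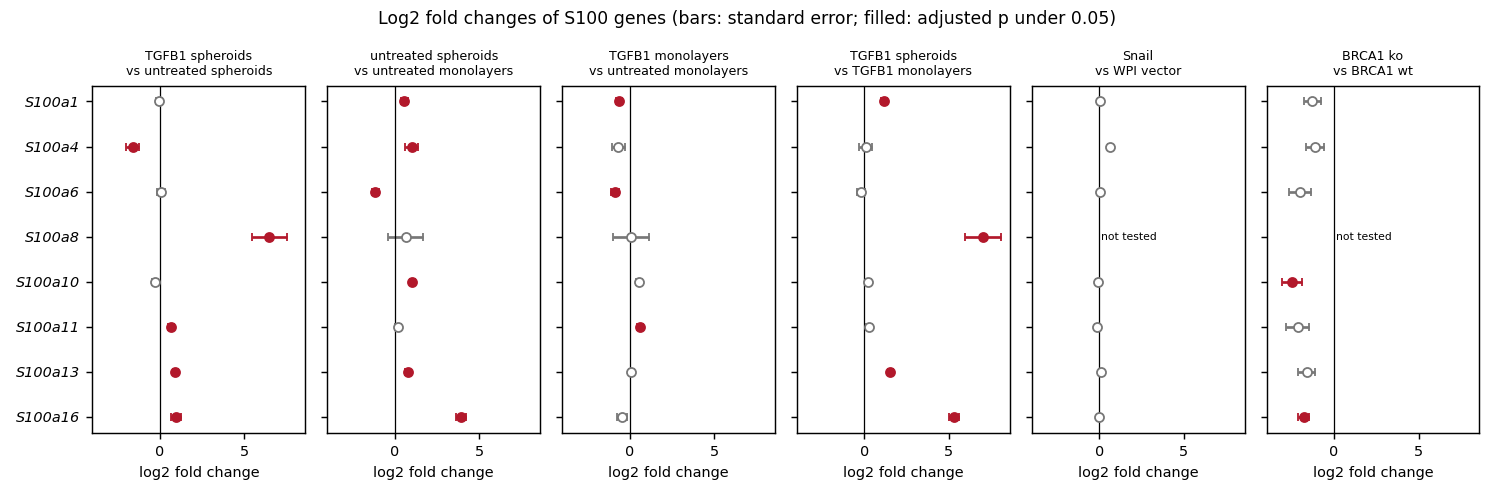
Log2 fold change (points) with its standard error (whiskers) for 8 genes in 6 comparisons; filled points passed an adjusted p of 0.05, and S100a9 is left out because it was tested nowhere. The largest values are those of S100a8 in the comparisons with TGFB1 spheroids and of S100a16 between spheroids and monolayers.

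Between cultures without TGFB1, S100a16, S100a10, S100a13 and S100a1 were higher in spheroids than in monolayers and S100a6 was lower. S100a4 was called higher too, but kept that call in only 12 of 21 other settings. Of 8 members tested, 5 were called higher and 1 lower, while 55.2% of all tested genes were called, 27.6% higher and 27.7% lower. The members' median log2 fold change was 0.69, beside 0.0061 over all tested genes. Libraries did not overlap for 6 members that were higher and 1 that was lower, against 32.8% and 32.5% of all tested genes. This contrast cannot be told apart from the origin of the libraries.

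S100a16, a broadly expressed and little characterised member, was at 81.4, 89.8 and 44.9 scaled TPM in untreated spheroids, against 4.30, 3.96 and 2.74 in untreated monolayers. The groups lay far apart, with a log2 fold change of 3.92 ± 0.30 (SE, limma adjusted p = 1.82e-06). With TGFB1, spheroids had 98.6, 186 and 123.5 scaled TPM and monolayers 1.60, 2.93 and 2.92 (log2 fold change 5.28 ± 0.30, SE, limma adjusted p = 1.92e-07). The authors' deposited table gives S100a16 a culture coefficient of 2.88 on the natural log scale, with a q of 6.57e-08 for all terms of their model together. All 12 fits without 1 library kept both calls.

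S100a10 was at 679, 640 and 971 scaled TPM in untreated spheroids and at 391, 311 and 394 in untreated monolayers, without overlap (log2 fold change 1.04 ± 0.17, SE, limma adjusted p = 0.000369). Of the binding partners, 7 of 14 tested were higher and 3 lower. Fgf1 averaged 49.7 scaled TPM in untreated spheroids and 2.27 in untreated monolayers (log2 fold change 3.37 ± 0.74, SE, limma adjusted p = 0.00258), and Plat, tissue plasminogen activator, 112 and 54.6 (1.02 ± 0.24, SE, limma adjusted p = 0.00437). Anxa2, the partner of S100a10, changed by 0.94 ± 0.20 (SE, limma adjusted p = 0.00218), with 926 scaled TPM on average in untreated spheroids and 485 in untreated monolayers. The ratio of Anxa2 to S100a10, both per length, was 1.25, 1.32 and 1.12 in untreated spheroids and 1.45, 1.23 and 1.29 in untreated monolayers. It was higher in TGFB1 spheroids, at 1.70, 1.497 and 1.53, than in the TGFB1 monolayers, at 1.19, 1.03 and 1.01.

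S100a6 went the other way. It was at 1271, 1209 and 2113 scaled TPM in untreated spheroids and 3209, 2868 and 3857 in untreated monolayers, and every spheroid library was below every monolayer library (log2 fold change -1.15 ± 0.23, SE, limma adjusted p = 0.00143). Cacybp, the calcyclin-binding protein named for this member and read after its values were seen, averaged 66.0 scaled TPM in untreated spheroids and 99.7 in untreated monolayers (-0.59 ± 0.07, SE, limma adjusted p = 5.13e-05). S100a1 and S100a13, the divergent neighbours, were both higher in untreated spheroids. S100a13 changed by 0.76 ± 0.15 (SE, limma adjusted p = 0.00134) and S100a1 by 0.57 ± 0.18 (SE, limma adjusted p = 0.019, but 0.0648 without untreated monolayer 1), and untreated monolayers had 38.3, 39.6 and 42.0 scaled TPM of S100a13 and 126.5, 142 and 142 of S100a1.

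S100a4 changed by 1.01 ± 0.38 (SE, limma adjusted p = 0.0439) between untreated spheroids and untreated monolayers, which had 39.9, 33.2 and 51.1 scaled TPM. Without untreated spheroid 3 the change was 0.55 with an adjusted p of 0.156. The call was also lost without untreated monolayer 1 (0.0963) or 2 (0.132), TGFB1 monolayer 3 (0.0573) or TGFB1 spheroid 3 (0.0503). In 4 of 9 other settings it was lost as well, with no filter (0.0885), quality weights (0.0954), the 6 libraries alone (0.0574) or the 2 monolayers averaged (0.113). S100a8 (adjusted p = 0.634) and S100a11 (adjusted p = 0.336) did not pass by limma. Among 7 further S100 genes in the table, 3 were tested, and S100a7a alone was called, with 28.4 scaled TPM on average in untreated spheroids and 1.71 in untreated monolayers (log2 fold change 3.49 ± 0.55, SE, limma adjusted p = 0.000321). S100a7a lies between S100a6 and S100a8, neither of which was called higher in untreated spheroids.

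In monolayers with TGFB1, S100a11 was higher and S100a1 and S100a6 were lower than in untreated monolayers, so 3 of 8 tested members were called, while 16.9% of all tested genes were called, 9.12% higher and 7.79% lower. Libraries did not overlap for 2 members that were higher and 2 that were lower, against 25.4% and 22.1% of all tested genes. S100a11 was at 2580, 1944 and 1891 scaled TPM in TGFB1 monolayers and 1448, 1273 and 1491 in untreated monolayers (log2 fold change 0.60 ± 0.18, SE, limma adjusted p = 0.0424). S100a6 was at 1741, 1841 and 1875 scaled TPM in TGFB1 monolayers (-0.85 ± 0.23, SE, limma adjusted p = 0.0272). S100a1 was at 78.7, 85.8 and 99.0 scaled TPM in TGFB1 monolayers (-0.64 ± 0.18, SE, limma adjusted p = 0.0341). In each of these genes the groups did not overlap, but the call was lost in 5 to 8 of the 12 fits without 1 library, with adjusted p up to 0.16. Averaging the 2 untreated monolayers that cite one earlier sample also ended all 3 calls (adjusted p = 0.0593 to 0.117), as did leaving out the filter (0.0747 to 0.113).

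S100a10 stood just outside the threshold, at 633, 482 and 480 scaled TPM in TGFB1 monolayers and above every untreated monolayer (log2 fold change 0.54 ± 0.17, SE, limma adjusted p = 0.0519). S100a4 was at 18.6, 33.4 and 25.1 scaled TPM in TGFB1 monolayers and overlapped with untreated ones by a single pair of values (-0.68 ± 0.38, SE, limma adjusted p = 0.258). S100a13, at 46.7, 40.5 and 42.7 scaled TPM, and S100a16 did not pass (limma adjusted p = 0.676 and 0.364). S100a8 was at 0.887, 0.395 and 0.456 scaled TPM in TGFB1 monolayers and 0.612, 0.696 and 0.182 in untreated monolayers, so it was near the filter in both groups. Of the 14 tested binding partners, 4 were higher and 3 lower with TGFB1 in monolayers, and Plat averaged 16.6 scaled TPM in TGFB1 monolayers and 54.6 in untreated ones (-1.72 ± 0.24, SE, limma adjusted p = 0.00126).

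The difference between the TGFB1 effects in spheroids and in monolayers was tested as an interaction, in which 15.8% of all tested genes were called, 8.72% higher and 7.11% lower. S100a8 (6.39 ± 1.48, SE, limma adjusted p = 0.0152) and S100a13 (0.78 ± 0.21, SE, limma adjusted p = 0.029) were called with a larger effect in spheroids. S100a10 was called with a lower one (-0.83 ± 0.24, SE, limma adjusted p = 0.0386), being above its untreated level in monolayers and not in spheroids. The S100a8 call held in all 12 fits without 1 library, whereas S100a13 kept it in 4 and S100a10 in 3. S100a16 (1.35 ± 0.42, SE, adjusted p = 0.0514) and S100a6 (0.93 ± 0.32, SE, adjusted p = 0.0754) missed the threshold by limma, and S100a11 had an interaction near 0 (0.08 ± 0.25, SE, adjusted p = 0.859).

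Ordered by mean level, S100a8, S100a13 and S100a16 ran from TGFB1 spheroids through untreated spheroids to the monolayers. For S100a13 and S100a16, TGFB1 spheroids were above untreated spheroids and untreated spheroids above untreated monolayers by the test, while the monolayer groups were not separated by it. For S100a8 TGFB1 spheroids were above untreated spheroids by the test, while untreated spheroids against untreated monolayers and the monolayer groups against each other did not pass. S100a11 ran from TGFB1 spheroids through TGFB1 monolayers and untreated spheroids to untreated monolayers, and neither culture step passed at a fixed treatment. S100a10 ran from untreated spheroids through TGFB1 spheroids and TGFB1 monolayers to untreated monolayers, and no step between neighbours passed. S100a1 ran from untreated spheroids through TGFB1 spheroids and untreated monolayers to TGFB1 monolayers, with the spheroid groups not separated. S100a4 ran from untreated spheroids through untreated monolayers and TGFB1 spheroids to TGFB1 monolayers, and its groups with TGFB1 were not separated. S100a6 was highest in untreated monolayers, and the other groups were not separated in the comparisons made. Between TGFB1 spheroids and TGFB1 monolayers 4 of 8 tested members were higher and 0 were lower, with 51.9% of all tested genes called, 25.3% higher and 26.5% lower. The same 4 were without overlap, against 29.2% (higher) and 30.2% (lower) of all tested genes. Besides S100a16, these were S100a8 (7.02 ± 1.05), S100a13 (1.54 ± 0.15) and S100a1 (1.16 ± 0.18), in log2 fold change with SE and limma adjusted p of at most 3e-04.

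**Figure D4:**
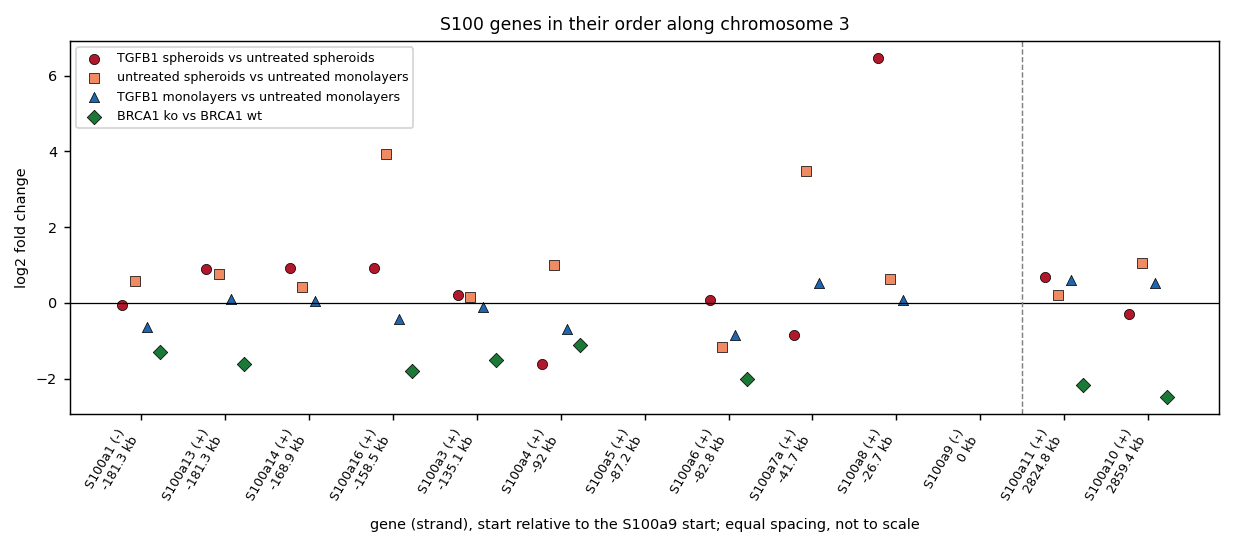
Log2 fold change (vertical axis) of 13 S100 genes in their order along chromosome 3, with strand and distance of each start from the S100a9 start in kb; genes are equally spaced, the dashed line marks the gap before S100a11 and S100a10, and genes without a point were not tested. All BRCA1 values lie below 0, while in the other comparisons neighbouring genes lie on both sides of 0.

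Of the 6 receptors on which S100 proteins can act, 2 were higher and 3 lower in TGFB1 spheroids than in untreated spheroids. Alcam, an adhesion molecule that binds S100B, averaged 393 scaled TPM in TGFB1 spheroids and 94.7 in untreated spheroids (log2 fold change 2.01 ± 0.19, SE, limma adjusted p = 3.87e-05). Mcam, a further adhesion molecule of the same class, averaged 6.84 and 1.10 scaled TPM (1.88 ± 0.23, SE, limma adjusted p = 0.000204). The receptors best known for calprotectin were read next to S100a8, after its values were seen. Tlr4 averaged 31.3 scaled TPM in TGFB1 spheroids and 41.8 in untreated spheroids (-0.41 ± 0.11, SE, limma adjusted p = 0.014), and Ager, the gene of RAGE, averaged 1.55 and 1.14 scaled TPM (limma adjusted p = 0.189). Bsg, a receptor of S100A9, was lower as well, at 779 and 1484 scaled TPM on average. Mcam and Alcam went apart between cultures, since in untreated spheroids Mcam was lower (-3.43 ± 0.23, SE) and Alcam higher (3.17 ± 0.19, SE) than in untreated monolayers, both with a limma adjusted p of at most 8.49e-07.

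The genes whose pattern lay closest to each member were found by the root mean square (RMS) difference of log2(scaled TPM + 1) over the 12 libraries of the culture experiment, each gene centred on its own mean. These values are descriptions, and all points share the libraries and their scaling. Closest to S100a8 were Serpinb2 (RMS difference 0.845), which averaged 3106 scaled TPM in TGFB1 spheroids, 13.2 in untreated spheroids, 2.23 in TGFB1 monolayers and 1.93 in untreated monolayers, and Vsig8 (0.981). Closest to S100a16 were Hmga1b (0.521) and Hmga1 (0.556), near-identical genes whose reads cannot be fully told apart. S100a13 lay closest to Jak2 (0.132) and Rasa3 (0.146), S100a4 to A530016L24Rik (0.237) and Zcchc24 (0.265), and S100a6 to Snapc5 (0.181) and Rab36 (0.205). S100a1 lay closest to Dram2 (0.159) and Eif4b (0.177), S100a10 to Fnbp1l (0.128) and Ugcg (0.158), and S100a11 to 1810055G02Rik (0.103) and Thop1 (0.127). Among the members, S100a10 and S100a11 were the closest pair (0.4401), and the nearest member to S100a16 was S100a13 (1.79).

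In the Snail experiment no member was called. Of 7 members tested 0 passed by limma and 1, S100a4, had an unadjusted p under 0.05, while 1.72% of all tested genes were called, 0.572% higher and 1.14% lower. Snai1 was at 234, 195 and 193 scaled TPM in Snail cells and 13.7, 10.1 and 9.81 in WPI vector cells, so the labels matched the targeted gene. S100a4 was at 49.9, 48.9 and 52.7 scaled TPM in Snail cells and at 32.5, 39.3 and 25.6 in WPI vector cells. Every Snail library was above every vector library, as was so for 9.70% of all tested genes (10.9% lay wholly below), and the log2 fold change was 0.64 ± 0.14 (SE), but the limma adjusted p was 0.0754. It passed in only 2 of 13 other settings, 1 of them without WPI vector 2 (limma adjusted p = 0.0427), and the adjusted p reached 0.225 in another. The authors' deposited table gives S100a4 a q of 0.00637 with a natural log coefficient of 0.46.

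The other 6 tested members had limma log2 fold changes between -0.15 (S100a11) and 0.08 (S100a13), with adjusted p from 0.665 to 0.922. S100a6 averaged 3923 ± 315 scaled TPM in Snail cells and 3842 ± 194 in WPI vector cells (SD, n = 3 each). S100a11 averaged 1683 ± 225 and 1875 ± 276 scaled TPM, and S100a10 448 ± 34.8 and 481 ± 58.3, in the same order of groups (SD, n = 3 each). S100a8 was at 1.54, 0.808 and 1.20 scaled TPM in Snail cells and 0.521, 0.749 and 0.347 in WPI vector cells, without overlap, and it missed the filter. S100a9 was at 0 in all Snail libraries and at 0.23 in 1 vector library. Of the binding partners, 0 of 13 tested passed by limma, with 3 at an unadjusted p under 0.05, and of the receptors Tlr4 alone was called, lower in Snail cells (-0.39 ± 0.07, SE, limma adjusted p = 0.039).

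**Figure D5:**
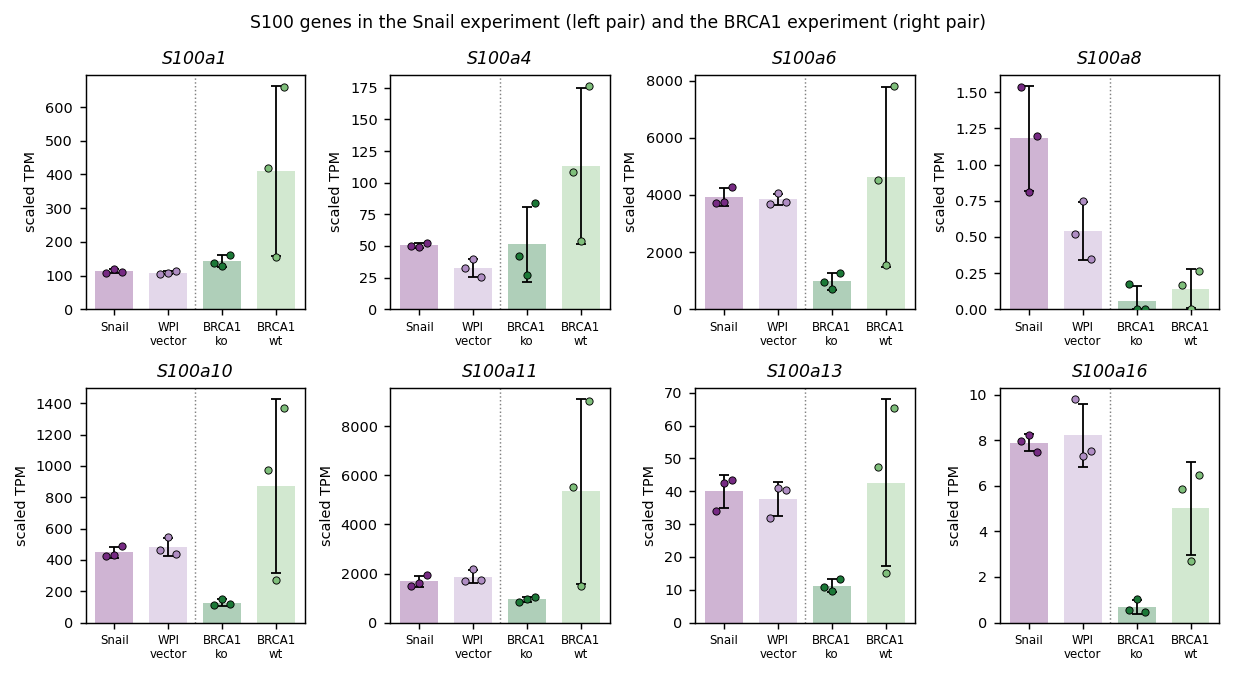
Scaled TPM (linear axis from 0, its own scale per panel) of 8 genes in Snail and WPI vector cells (left of the dotted line) and in BRCA1 ko and BRCA1 wt cells (right); points are libraries 1 to 3 from left to right, bars are means and whiskers are SD, drawn no lower than 0. The tables were scaled separately, so the left and right pairs are not comparable, and BRCA1 wt libraries had a larger SD than BRCA1 ko libraries in all 8 panels.

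In the BRCA1 experiment every tested member had a lower mean in BRCA1 ko than in BRCA1 wt cells, and S100a10 and S100a16 passed the test. Of 7 members tested, 0 were called higher and 2 lower, while 14.3% of all tested genes were called, 9.04% higher and 5.27% lower. The members' median log2 fold change was -1.80, beside 0.17 over all tested genes. Libraries did not overlap for 0 members that were higher and 5 that were lower, against 26.6% and 18.3% of all tested genes. With every library scaled to an equal sum, the median over all genes was 0.63, all 7 members stayed below 0 (-0.59 for S100a4 to -1.95 for S100a10), and the calls were again S100a10 and S100a16. The summed share of the 9 genes in a library was 0.242% to 0.320% in BRCA1 ko cells and 0.443% to 1.06% in BRCA1 wt cells. BRCA1 wt 2 stood apart from the other two of its group, and column sums were 819962 to 843146 in BRCA1 ko and 796668 to 1810667 in BRCA1 wt libraries. The gene total of Brca1 was 5.35, 11.1 and 4.09 scaled TPM in BRCA1 ko and 4.27, 12.3 and 3.66 in BRCA1 wt cells. It covers the whole gene rather than the floxed part, so it does not check the deletion.

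S100a10 was at 114.7, 150.5 and 117.6 scaled TPM in BRCA1 ko cells and 978, 273 and 1368 in BRCA1 wt cells. The groups did not overlap, and the log2 fold change was -2.49 ± 0.58 (SE, limma adjusted p = 0.0367). Anxa2 was lower too, at 44.9, 70.9 and 32.1 scaled TPM in BRCA1 ko and 486, 155 and 591 in BRCA1 wt cells (-2.89 ± 0.54, SE, limma adjusted p = 0.0203). S100a16 was low in this line, at 0.532, 1.01 and 0.458 scaled TPM in BRCA1 ko and 5.85, 2.68 and 6.49 in BRCA1 wt cells (-1.80 ± 0.32, SE, limma adjusted p = 0.0176). Outside BRCA1 wt it reached the filter's scaled TPM of 1 only in BRCA1 ko 2. S100a16 was therefore tested only because of the group in which it was higher, so its call is not separate from the filter. Both calls were lost when any of BRCA1 ko 1, ko 2, ko 3 or wt 1 was left out, with adjusted p up to 0.175 for S100a10 and 0.137 for S100a16, and S100a10 also lost it without wt 3 (0.0807). With no filter on low values the adjusted p was 0.0793 for S100a10 and 0.0502 for S100a16. The authors' deposited table gives S100a10 a q of 0.00785 and S100a16 one of 1.69e-05.

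S100a6, S100a11 and S100a13 had log2 fold changes of similar size without passing. S100a11 was at 834, 973 and 1043 scaled TPM in BRCA1 ko and 5538, 1489 and 9021 in BRCA1 wt cells (-2.15 ± 0.68, SE, limma adjusted p = 0.0681). S100a6 was at 950, 703 and 1276 scaled TPM in BRCA1 ko and 4511, 1540 and 7823 in BRCA1 wt cells (-2.00 ± 0.64, SE, limma adjusted p = 0.0708). S100a13 was at 10.8, 9.55 and 13.4 scaled TPM in BRCA1 ko and 47.4, 15.1 and 65.4 in BRCA1 wt cells (-1.62 ± 0.51, SE, limma adjusted p = 0.0683). In these genes no libraries overlapped between the groups, and BRCA1 wt 2 was always the wt library nearest to the ko ones. The authors' deposited table gives a q of 0.0326 for S100a11, 0.0314 for S100a6 and 0.0427 for S100a13.

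S100a1 was at 138.5, 128 and 161 scaled TPM in BRCA1 ko and 418, 154 and 659 in BRCA1 wt cells, and S100a4 at 42.4, 27.1 and 84.0 in BRCA1 ko and 108.8, 53.8 and 177 in BRCA1 wt cells. Both overlapped and did not pass (limma adjusted p = 0.104 for S100a1 and 0.151 for S100a4). Without BRCA1 wt 2, all 7 tested members were called lower, with log2 fold changes from -1.57 for S100a4 to -3.18 for S100a10. In that fit the number of called genes, in both directions, was 8295 in place of 1828, beside 12775 tested in the full fit. Most genes were therefore called there, and the 7 calls are not particular to the members. S100a8 was at most 0.263 scaled TPM and S100a9 at 0 in every library of this experiment.

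Of 13 tested binding partners in the BRCA1 experiment, 2 were higher and 3 lower. Anxa1, which S100a11 binds, averaged 134.5 ± 30.0 scaled TPM in BRCA1 ko and 619 ± 217 in BRCA1 wt cells (SD, n = 3 each, log2 fold change -2.15 ± 0.34, SE, limma adjusted p = 0.0115). Trp53 was lower too (-1.02 ± 0.25, SE, limma adjusted p = 0.0405). Fgf1, a cargo of S100a13, was higher while S100a13 was not, averaging 10.5 scaled TPM in BRCA1 ko and 1.35 in BRCA1 wt cells (2.33 ± 0.31, SE, limma adjusted p = 0.00608). Plat, tissue plasminogen activator, averaged 238 and 59.8 scaled TPM in the same groups (1.89 ± 0.47, SE, limma adjusted p = 0.0431).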

How the data were processed

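Poly(A) RNA of 24 libraries was quantified by the authors. The submitters' processing notes name kallisto 0.44.0, sleuth 0.30.0 and the build GRCm38. The deposited signal values are TPM that the authors scaled per library, here called scaled TPM. The authors' deposited comparison tables give coefficients as natural log values with p-values and q-values, and in the culture table the q covers all terms of the model together. Low values were kept as deposited.

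Values were taken as log2(scaled TPM + 1), and genes with at least 1 in at least 3 libraries were fitted with limma 3.58.1 (R 4.3.3, lmFit and eBayes with trend). The culture experiment was fitted over its 12 libraries, the Snail and BRCA1 experiments over 6 each. This left 13509, 12240 and 12775 genes. The TPM assumed at the outset proved to be scaled, and the test was kept. The fit was tested on simulated data. In no comparison did every same-numbered pair deviate together (correlation over 0.1), so the numbers were not taken to pair libraries.

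The members and the gene lists (binding partners, receptors, further S100 genes, inflammatory, myeloid, ovarian surface, squamous, fibroblast and endothelial markers) were chosen with earlier results of these data known. All 9 members are named. Of other lists, the rule allows by name called genes with a log2 fold change of at least 1 either way, at most 4 per direction. Those nearest to the members' roles are given, picked among them after their values were seen. Also named are the 2 genes most like each member, and Tgfb1, Snai1 and Brca1. Cd68, Cxcr2, Cebpa, Anxa1 and Fgf1 in spheroids, Anxa2 between cultures, Cacybp, Tlr4, Ager and Bsg were named after their values were seen. Alternatives were other scalings, pseudocounts, filters and designs, and each library left out.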

Additional observations from a re-analysis of the deposited data

Results flagged for a closer look

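The effect of TGFB1 on 3 S100 genes differed between spheroids and monolayers by the interaction test in limma. For S100a8 the effect in spheroids minus that in monolayers was 6.39 in log2 units, for S100a13 it was 0.78, and for S100a10 it was -0.83. The S100a8 difference kept its call in every setting tried, but S100a8 passed the filter on low values only through the TGFB1 spheroids. S100a10 kept its call in 9 of 20 settings (adjusted p up to 0.0897) and S100a13 in 8 of 20 (up to 0.0729). Spheroid libraries and re-analysed monolayer libraries cannot be told apart from the cultures themselves.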

How the results depend on the processing

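Of 54 tested member results 23 were called, 12 of them in all settings, and 13 uncalled ones passed in at least 1 setting. The cause was not tested where a value moved. Called genes for TGFB1 against untreated spheroids were 2787 with the 6 spheroid libraries alone, in place of 4810. For TGFB1 against untreated monolayers they were 6431 with library quality weights, 3771 with those 6 libraries alone and 1307 with the 2 monolayers that cite one sample averaged, in place of 2284. For the interaction they were 4385 with quality weights in place of 2138. For Snail they were 54 with no filter and 16 with a replicate block in place of 210. For BRCA1 they were 1091 with no filter, 878 with equal sums, 433 with a replicate block and 11536 with quality weights, in place of 1828.

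Without 1 library, called genes ranged from 3095 to 4939 for TGFB1 against untreated spheroids, 6386 to 7812 for untreated spheroids against monolayers, 1220 to 2824 for TGFB1 against untreated monolayers, 6019 to 7509 for TGFB1 spheroids against TGFB1 monolayers, 1307 to 2658 for the interaction, 23 to 74 for Snail, and 57 (without BRCA1 ko 1) to 8295 (without BRCA1 wt 2) for BRCA1.

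Signs turned only for uncalled values. In TGFB1 against untreated spheroids S100a1 was 0.10 with quality weights and S100a6 -0.11 with equal sums. In TGFB1 spheroids against TGFB1 monolayers S100a4 was -0.0915 with equal sums and -0.21 with quality weights, and the S100a11 interaction was -0.14 with equal sums. Without 1 library, S100a1 ranged from -0.21 to 0.19 and S100a6 from -0.12 to 0.33 between spheroids, S100a8 from -0.0794 to 0.18 between monolayers, S100a4 from -0.13 to 0.38 with TGFB1 between cultures, and the S100a11 interaction from -0.12 to 0.23. For Snail, S100a6 ranged from -0.0374 to 0.0688, S100a13 from -0.0329 to 0.19 and S100a16 from -0.11 to 0.0767. Equal sums moved the median of all genes to -0.16 between spheroids (1589 higher, 3751 lower), -0.15 with TGFB1 between cultures (2423 higher, 4898 lower), -0.21 for the interaction (731 higher, 1914 lower) and 0.63 for BRCA1. The replicate block also ended the calls of S100a10 (adjusted p = 0.0908) and S100a16 (0.0731) for BRCA1, S100a11 (0.0752) in monolayers and the S100a13 interaction (0.0537) by limma, and the S100a16 interaction passed (0.0426). With no filter, S100a9 between spheroids had a log2 fold change of 0.91 (limma adjusted p = 0.0914) and S100a8 with Snail 0.50 (0.365). Depth is unknown, so no floor can be set for genes listed at 0.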
